A study of Mus musculus with 36 samples.

Results

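The comparison described here set hepatocyte cultures that received vectors for mouse GKRP-446L and GK (GK+mL) against cultures that received vectors for human GKRP-446L and GK (GK+hL). Its members were the 6 cultures whose treatment labels read Ad-mL + GK and Ad-hL + GK, 3 of each, from 36 cultures in the whole series. The cultures were paired by hepatocyte preparation, since each of 3 mice contributed 1 culture to either group. GKRP is the glucokinase regulatory protein, encoded by Gckr in the mouse and GCKR in humans, and 446L names the form with leucine at residue 446, where the other form, 446P, has proline.

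Hepatocytes came from 3 female mice of the P446L line aged 14 weeks. The labels give the genotype Gckr-446L for mouse 1 and mouse 2 and Gckr-446P/L for mouse 3, whereas the methods of the study describe the P446L donors as homozygous for 446L. The study used the cells as GKRP-deficient hepatocytes, and its methods state of homozygous 446L cells that their own GK is not held in the nucleus. GKRP vectors were added at the same titre, for human GCKR or for transcript-1 of mouse Gckr, and the GK vector at a titre chosen to raise GK above the endogenous level. Cells were cultured for 24 h in serum-free medium with 5 mM glucose, 10 nM dexamethasone and 10 nM insulin. They were then kept for 4 h at 25 mM glucose before RNA extraction. The other conditions used below were untreated cells (UN), GK alone, human and mouse GKRP-446L at endogenous GK (hL, mL), and human and mouse GKRP-446P with GK (GK+hP, GK+mP). UN and GK alone had 2 cultures per mouse, which were summed, so that n = 3 mice in every condition. Nothing in the labels gives the species of the GK sequence, and each line of comparison rests on adenoviral expression in primary cells from 3 animals.

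GK phosphorylates glucose in hepatocytes and sets the rate at which these cells make glucose 6-phosphate. GKRP binds GK and holds it in the nucleus in an inactive form, and high glucose or fructose 1-phosphate releases it. When more glucose is phosphorylated, the transcription factor ChREBP (gene Mlxipl) becomes active with its partner Mlx and induces genes of glycolysis, fructose metabolism and fatty acid synthesis. The level of these genes in cultured hepatocytes is therefore a readout that follows GK activity, and the comparison of GK+mL with GK+hL asks how such genes differ when the 446L protein restraining GK is that of the mouse or of the human.

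The 6 libraries held between 4569187 and 6006845 reads assigned to transcripts, against 3924674 to 10046158 in all 36. Values are CPM, counts scaled to a common library size by TMM, and they compare a gene between conditions, not one gene with another. Gckr was used only to check the labels and the level of vector RNA, as it is a vector transcript. It lay between 46.2 and 70.1 CPM in the GK+hL samples and between 9010 and 14485 CPM in the GK+mL samples. In mice 1, 2 and 3 it was at 10944, 9010 and 14485 CPM with GK+mL. It was higher in each mouse with GK+mP (14777.5, 14383 and 20146 CPM) and with mL at endogenous GK (14323, 11251 and 17263 CPM). Human GCKR RNA is not part of the mouse transcripts that the reads were assigned to, so the amounts of the human and mouse GKRP RNAs could not be compared, and protein was not measured in these files. Hepatocyte markers were abundant in all 6 libraries, with Alb between 75881 and 116683 CPM. Of 6 lymphocyte markers, 4 had 0 reads in these libraries, Cd3e, Cd3g and Nkg7 among them, and Cd79a and Ms4a1 had at most 0.211 and 0.421 CPM. Macrophage markers summed to 295 to 331 CPM with GK+hL and 276 to 332 CPM with GK+mL, and endothelial markers to 83.4 to 122 CPM and 86.1 to 117 CPM. Stellate and cholangiocyte markers differed between mice more than between vectors (for example 180.1, 24.4 and 42.5 CPM of cholangiocyte markers with GK+hL in mice 1, 2 and 3, and 164, 21.1 and 42.8 CPM with GK+mL).

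Genes that GK alone raised sat higher with mouse than with human GKRP-446L, but no single gene passed the test after adjustment. Of 12176 genes tested with edgeR's quasi-likelihood test, with the mouse as a term, 0 (0%) were called higher and 0 (0%) lower in GK+mL when a call needed an adjusted p under 0.05 and a ratio of 1.3 or more upward, or 0.7 or less downward. At an unadjusted p under 0.05, 373 genes (3.06%) were higher and 407 (3.34%) lower, and the smallest adjusted p was 0.177. DESeq2 with the mouse as a term called 22 genes higher and 14 lower. Of those 36, 24 were pseudogenes, noncoding or predicted genes, and among the other 12 were 5 genes raised by GK alone, Tkfc, Klf10, Txnip, Elovl6 and Pklr, all higher in GK+mL. With the mouse left out, DESeq2 called 11 higher and 8 lower. A fit to the 5 conditions with GK alone or combined called 2 genes, Klf10 (edgeR adjusted p = 0.0452) and Txnip (adjusted p = 0.0160), both higher.

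Among genes with a symbol of their own that were higher in 3 of 3 mice, pseudogenes left aside, Tkfc, Klf10 and Pklr had the smallest p-values in the upward direction. Over all genes the pseudogene Krt8-ps (edgeR adjusted p = 0.177) stood between Tkfc and Klf10. Tkfc (triokinase, chromosome 19, 10565155 to 10583018, minus strand, GRCm39) phosphorylates glyceraldehyde from fructose. It was read at 194, 231 and 189 CPM with GK+hL and 298, 383 and 339 CPM with GK+mL. All 3 values with GK+mL lay above all 3 with GK+hL, and the means were 340.1 ± 42.9 and 204 ± 22.9 CPM (SD, n = 3), a 1.66-fold ratio (log2 0.73, SE 0.14, edgeR adjusted p = 0.177). GK alone gave 449.96 ± 108 CPM and untreated cells 191 ± 11.4 CPM, so that the mean with GK+hL was near that of untreated cells and the mean with GK+mL lay between them and GK alone.

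Pklr (chromosome 3, 89043449 to 89054619, plus strand) encodes the liver pyruvate kinase, the last step of glycolysis. Its levels were 70.04, 48.9 and 71.6 CPM with GK+hL and 99.7, 84.7 and 121 CPM with GK+mL, again without overlap, and the ratio was 1.62 (log2 0.70, SE 0.15, adjusted p = 0.212). Both vectors left it below GK alone, at 176 ± 53.9 CPM, and the GK+hL mean of 63.5 CPM was also below the 89.2 ± 30.5 CPM of untreated cells.

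Klf10 (chromosome 15, 38291703 to 38300959, minus strand) is a zinc finger transcription factor that responds to glucose in hepatocytes. It measured 17.1, 23.2 and 26.1 CPM with GK+hL and 33.6, 42.6 and 71.9 CPM with GK+mL. Each mouse had the higher level with mouse GKRP, and the lowest GK+mL sample lay above the highest GK+hL sample (ratio 2.16, log2 1.11, SE 0.23, adjusted p = 0.180). Txnip (chromosome 3, 96465267 to 96469201, plus strand), an arrestin-like protein that restrains glucose uptake and binds thioredoxin, had 30.04, 58.3 and 66.1 CPM with GK+hL and 53.7, 152 and 192 CPM with GK+mL. Mouse 1 was low under both vectors, so the groups overlapped, yet all 3 mice had more Txnip with mouse GKRP (ratio 2.40, log2 1.26, SE 0.29, adjusted p = 0.264). Rgs16 (chromosome 1, 153616091 to 153621228, plus strand), a regulator of G protein signalling, was at 11.6, 19.6 and 8.63 CPM with GK+hL and 20.7, 45.1 and 23.2 CPM with GK+mL with no overlap (log2 1.14, SE 0.36, adjusted p = 0.569). The mean levels with GK alone were 75.1 CPM for Klf10, 239 CPM for Txnip and 46.4 CPM for Rgs16, above both vectors.

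**Figure D1:**
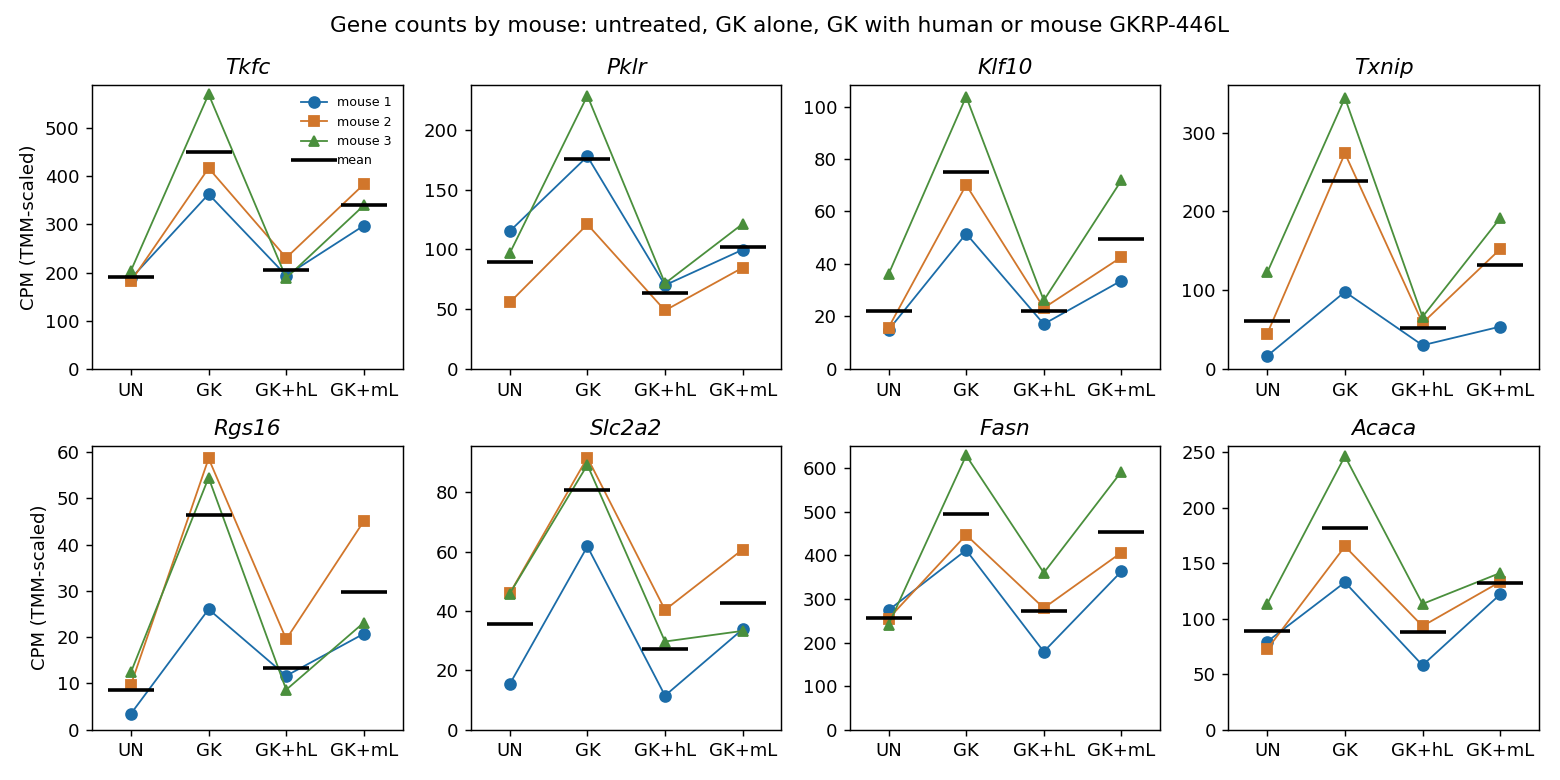
CPM (TMM-scaled, linear axis from 0) of 8 genes in untreated cells, GK alone, GK+hL and GK+mL, with 1 symbol per mouse joined by a line and the mean of 3 mice as a black bar. For Tkfc, Pklr, Klf10, Txnip, Rgs16, Slc2a2, Fasn and Acaca the mean with GK+mL lies between GK+hL and GK alone.

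The promoters of Pklr and Txnip are shown because letters with the form of a carbohydrate response element, the paired E-box-like element bound by ChREBP and Mlx, can be read in them. The letters are the 250 bases before the start of a transcript that carried at least 10% of the gene's reads (GRCm39, read from the reference genome), with a pair of short elements of the form CACGNG, on either strand and separated by 5 bases, in capitals.
Pklr, chr3:89043629-89043878, plus strand: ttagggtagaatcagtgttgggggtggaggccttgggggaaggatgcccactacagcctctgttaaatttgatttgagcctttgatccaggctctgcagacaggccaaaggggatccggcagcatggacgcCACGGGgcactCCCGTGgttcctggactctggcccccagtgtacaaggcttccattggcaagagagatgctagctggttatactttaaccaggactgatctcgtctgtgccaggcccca
Txnip, chr3:96465017-96465266, plus strand: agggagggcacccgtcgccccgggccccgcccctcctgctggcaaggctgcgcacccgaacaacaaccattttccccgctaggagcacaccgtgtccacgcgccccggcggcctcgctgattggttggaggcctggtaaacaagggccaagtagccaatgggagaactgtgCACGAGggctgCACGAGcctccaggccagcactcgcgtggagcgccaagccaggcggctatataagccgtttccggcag
The pair began 119 bases before the start of the Pklr transcript used and 79 bases before that of Txnip. The start of this Pklr transcript, and the window before it, lie inside the bounds given above for the gene. The motif was chosen with these results known. Such a pair was found before 14 of 11180 protein-coding genes tested (0.125%) and before 4 of 239 protein-coding genes raised by GK alone (1.67%), which were Pklr, Txnip, Ddhd2 and Fam124a. Single elements were common, in 38.5% of all genes and 37.7% of the GK-raised ones. A match says only that these letters stand in the window.

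GK alone, set against the mean of the 5 conditions at endogenous GK, raised 251 genes (2.06% of those tested) and lowered 184 (1.51%). The GK+mL and GK+hL groups were not part of that contrast, but their libraries entered the fit's filter, scaling, mouse terms and spread. A fit to only the conditions compared raised 312 genes, 244 of them among the 251. In GK+mL against GK+hL, 187 of the 251 raised genes had a log2 difference above 0 (74.5%, against 53% of all genes tested). Their median log2 difference was 0.12, beside 0.015 over all genes, and the median per mouse was 0.18, 0.12 and 0.12 in mice 1, 2 and 3. Of the raised genes, 48 were higher and 2 lower at an unadjusted p under 0.05 (3.06% and 3.34% of all genes). They included 85 genes (33.9%) higher in 3 of 3 mice, where all genes gave 13.5%, and 16 lower in 3 of 3 mice, where all genes gave 12.8%. The groups did not overlap for 21 of them in the upward direction (3.03% of all genes) and for 0 in the downward direction (2.84% of all genes).

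The difference was larger for genes with a larger response to GK. It had a median of 0.062 in 131 genes raised 1.3- to 1.5-fold, 0.12 in 77 raised 1.5- to 2-fold, 0.43 in 28 raised 2- to 3-fold and 0.71 in 15 raised more than 3-fold. All 15 of the last had a difference above 0. A narrower set of 42 genes (0.345% of those tested) that GK raised against untreated cells only had 40 above 0 and a median of 0.43. Genes lowered by GK alone had a median of 0.048, with 114 of 184 above 0. All of the 5 conditions that defined both sets, except untreated cells, carried a GKRP vector, so effects of these vectors can enter the sets. Against GK alone, the lowered genes had medians of 0.86 with GK+hL and 0.94 with GK+mL, with 1 of 184 below 0 in each. The raised genes had medians of -0.51 and -0.39, with 245 and 236 of 251 below 0. The share of the vectors in either set was not tested.

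**Figure D2:**
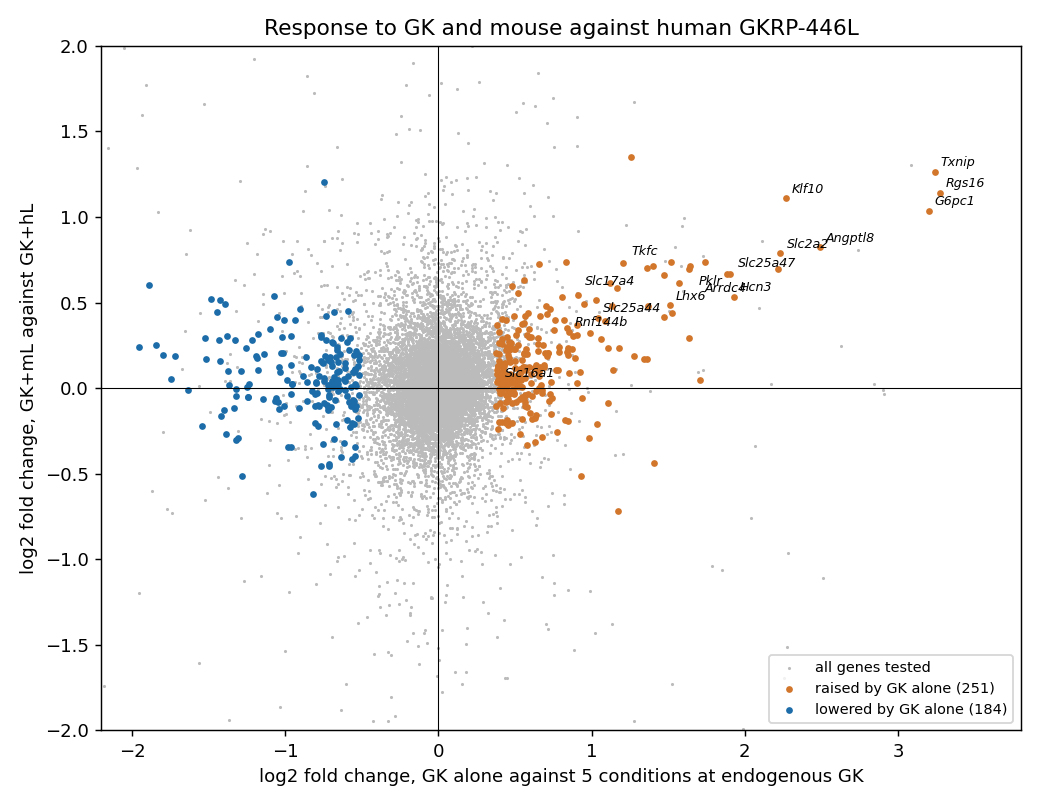
Log2 fold change of GK alone against the 5 conditions at endogenous GK (x axis) and of GK+mL against GK+hL (y axis), 1 point per gene, with genes raised by GK in orange and genes lowered in blue; 270 genes lie outside the axes. The 15 genes raised more than 3-fold all sit above 0 on the y axis, and the 184 lowered genes lie on both sides of 0.

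The study text names 17 genes as raised by GK or counter-regulated by GK and GKRP. It chose them on these libraries, the GK+hL and GK+mL cultures among them. Neither their direction with GK nor their counts and medians, in GK+mL against GK+hL or in the comparisons below, are independent evidence. All 17 had a log2 difference above 0, 11 were higher at an unadjusted p under 0.05 (3.06% of all genes), 15 were higher in 3 of 3 mice (13.5% of all genes) and 7 did not overlap (3.03% of all genes). The median was 0.70, with 0.50, 0.59 and 0.76 in mice 1, 2 and 3. The mean level of each of the 17 was lowest with GK+hL, intermediate with GK+mL and highest with GK alone, an order that 173 of the 251 raised genes and 2212 of all 12176 genes showed. Means with GK+mL were above untreated cells for 16 of the 17, and means with GK+hL for 10. These orders are a description, as GK alone is a shared control of both and helped to choose the genes.

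Among transporters of this list, Slc2a2 (GLUT2, the glucose transporter of hepatocytes) was at 11.5, 40.3 and 29.7 CPM with GK+hL and 33.8, 60.7 and 33.3 CPM with GK+mL. It was higher in 3 of 3 mice, least so in mouse 3 (log2 0.79, SE 0.27). Slc25a44, a mitochondrial carrier of branched-chain amino acids, was at 44.1, 66.8 and 61.1 CPM with GK+hL and 66.4, 84.8 and 76.5 CPM with GK+mL (log2 0.41, SE 0.12, adjusted p = 0.509). Slc25a47, a mitochondrial carrier found mainly in hepatocytes, was at 41.9, 53.8 and 37.5 CPM with GK+hL and 59.4, 88.95 and 63.4 CPM with GK+mL, without overlap (log2 0.67, SE 0.25). The lactate and pyruvate transporter Slc16a1 differed least, with a log2 difference of 0.031 (95% interval -0.12 to 0.18, and -0.0035 with an offset for effective transcript lengths) at 102 and 104 CPM, although GK alone had raised it to 123 CPM from 92.2 CPM in untreated cells. Over 22 tested mitochondrial carriers of the Slc25 family 14 were above 0, with a median of 0.071.

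G6pc1, the catalytic subunit of glucose 6-phosphatase, was low and variable, at 1.88, 4.89 and 2.32 CPM with GK+hL and 2.61, 7.70 and 8.45 CPM with GK+mL; its log2 difference of 1.04 had a 95% interval of -0.0013 to 2.08. The E3 ligase gene Rnf144b did not overlap, at 86.9, 104 and 104 CPM with GK+hL and 115, 133 and 123 CPM with GK+mL (log2 0.33, SE 0.14). Angptl8, a secreted inhibitor of lipoprotein lipase, was at 14.8, 18.7 and 11.8 CPM with GK+hL and 15.5, 26.7 and 37.3 CPM with GK+mL, and mouse 1 showed almost no difference. With an offset for the effective transcript lengths in each library, an alternative fit, its log2 difference was -0.15. Arrdc4, the arrestin-like relative of Txnip, was lower with mouse GKRP in mouse 1 (6.10 against 7.32 CPM) and higher in the other two (log2 0.67, SE 0.33). The low-abundance genes Lhx6, Slc17a4 and Hcn3 had log2 differences of 0.48, 0.70 and 0.53, each with an interval that included 0.

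Of 28 glucose-responsive genes listed as ChREBP targets or partners, 26 were tested, 24 had a difference above 0 and 16 were higher at an unadjusted p under 0.05 (0 lower), against 3.06% of all genes. The median was 0.57, with 0.53, 0.46 and 0.60 by mouse. The list shares most of its leading genes with the previous one. Some members outside the rule for named genes were chosen after their values were seen. Mlxipl, which encodes ChREBP, was at 76.4, 61.5 and 60.6 CPM with GK+hL and 99.01, 79.6 and 86.2 CPM with GK+mL, without overlap (log2 0.42, SE 0.16). The glycerol 3-phosphate dehydrogenase gene Gpd1 was at 142, 78.8 and 91.997 CPM with GK+hL and 196, 91.997 and 162 CPM with GK+mL, higher in 3 of 3 mice (log2 0.52, SE 0.14). Bhlhe40 and Mlx were the 2 members below 0 (log2 -0.073 and -0.082, Bhlhe40 at 0.58 with the effective length offset), and Me1, the cytosolic malic enzyme, was nearly equal at 173 and 177 CPM (log2 0.038, 95% interval -0.12 to 0.20). Mean levels of 22 of the 26 followed the order GK+hL, GK+mL, GK alone.

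The enzymes that turn citrate into long fatty acids differed in the same direction. Fasn (fatty acid synthase, chromosome 11, 120696672 to 120715995, minus strand) was at 179, 279 and 360.2 CPM with GK+hL and 363, 407 and 593 CPM with GK+mL, with no overlap and means of 273 ± 90.7 and 454 ± 122 CPM (log2 0.74, SE 0.23, adjusted p = 0.569). Acaca, the acetyl-CoA carboxylase that makes malonyl-CoA, was at 58.02, 93.3 and 113 CPM with GK+hL and 122, 133 and 141 CPM with GK+mL, also without overlap (log2 0.61, SE 0.19). Acly, which releases acetyl-CoA from citrate, was at 191, 322 and 345 CPM with GK+hL and 278, 450.1 and 465 CPM with GK+mL and higher in each mouse (log2 0.48, SE 0.15). Elovl6, which elongates palmitate, was at 34.4, 35.03 and 52.4 CPM with GK+hL and 56.5, 44.9 and 75.5 CPM with GK+mL (log2 0.53, SE 0.12, adjusted p = 0.264). The desaturase Scd1, an abundant transcript, showed little difference, at 3014 and 3326 CPM (log2 0.14, 95% interval -0.056 to 0.34). Over 20 lipogenic genes 17 were above 0 and 5 passed an unadjusted p of 0.05, all upward, with a median of 0.13. Of all genes tested, 53% were above 0 and 3.06% were higher at that p, shares that also apply to the lists below. The triglyceride enzymes Gpam, Agpat2, Dgat1 and Dgat2 lay between -0.018 and 0.039, and Lpin1 had a log2 difference of 0.55 (SE 0.20).

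Lists of sugar metabolism were mixed in direction. Of 8 tested genes of fructose metabolism 6 were above 0 (median 0.28); besides Tkfc, the glycerate kinase gene Glyctk was at 86.9, 70.7 and 74.1 CPM with GK+hL and 109, 98.6 and 86.9 CPM with GK+mL (log2 0.35, SE 0.11), and ketohexokinase, Khk, had 0.22 (95% interval -0.095 to 0.53) and -0.33 with the effective length offset. Under that offset the median of the fructose list was 0.0083, of gluconeogenesis -0.021 and of glycolysis 0.061. Gluconeogenic genes had 9 of 12 above 0 and a median of 0.23, led by G6pc1 and by Slc37a4, the glucose 6-phosphate transporter (0.39, SE 0.18). Glycolysis as a list had 8 of 19 above 0 and a median of -0.028: Pklr stood at its upper end, and Aldoc, the brain-type aldolase, and Pdk4, an inhibitory kinase of pyruvate dehydrogenase, at its lower end. Pdk4 was at 19.5, 11.2 and 17.1 CPM with GK+hL and 10.6, 6.80 and 12.7 CPM with GK+mL, lower in 3 of 3 mice (log2 -0.66, SE 0.19), but 0.50 when effective transcript lengths were used as an offset. Pfkfb3, which GK raised, was at 94.6 and 100.03 CPM (log2 0.10, 95% interval -0.24 to 0.44). Pentose phosphate genes had a median of 0.077 and glycogen genes 0.0066.

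Upward genes outside these pathways that the rule for named genes picked were Kitl, Vps9d1, St3gal2, Myl12b and Nadk. Kitl, the ligand of the receptor tyrosine kinase Kit, was a low transcript at 3.004, 1.83 and 3.37 CPM with GK+hL and 6.62, 5.01 and 6.62 CPM with GK+mL, with no overlap (log2 1.20, SE 0.27, adjusted p = 0.264), although GK alone had lowered it. St3gal2, a sialyltransferase, and Vps9d1 did not overlap either (log2 0.76 and 0.97), and neither was raised by GK. The myosin light chain gene Myl12b (log2 1.18) and the NAD kinase gene Nadk (log2 0.20) were higher in 3 of 3 mice with overlapping groups. In the downward direction Rragc had the smallest p (adjusted p = 0.177). It encodes a Rag GTPase of amino acid signalling to mTORC1 and was at 109, 105 and 96.2 CPM with GK+hL and 80.01, 84.5 and 83.4 CPM with GK+mL (log2 -0.32, SE 0.063). Eapp, Ggnbp2 and Nufip1 also did not overlap, with log2 differences of -0.76, -0.36 and -0.65, although Eapp and Ggnbp2 were at 0.060 and 0.93 with the effective length offset. Chka, choline kinase, was lower in each mouse but differed more between mice than between vectors, at 179.7, 68.6 and 85.3 CPM with GK+hL and 135, 59.96 and 64.7 CPM with GK+mL. Gabarapl2, an autophagy protein of the Atg8 family, was at 69.5, 60.3 and 54.9 CPM with GK+hL and 50.6, 44.03 and 44.1 CPM with GK+mL (log2 -0.41, SE 0.11). Tor3a, Terf1, Pnrc1 and Slc4a1ap completed the set, between -1.02 and -0.51, of which Terf1 and Slc4a1ap were above 0 with that offset (0.057 and 0.32). None of the 10 belonged to the sets raised or lowered by GK.

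Acute phase proteins, which hepatocytes secrete in inflammation, lay slightly lower with mouse GKRP. Of 16 tested, 14 were below 0 and 9 were lower in 3 of 3 mice (12.8% of all genes), with a median of -0.18 and -0.23, -0.11 and -0.14 by mouse, and 3 were lower at an unadjusted p under 0.05 (3.34% of all genes). Serum amyloid Saa1 was at 5819.96, 6234 and 5573 CPM with GK+hL and 4225, 5407 and 4717 CPM with GK+mL (log2 -0.30, 95% interval -0.61 to 0.0042), and the fibrinogen chain Fga at 2355, 4029 and 3049.6 CPM with GK+hL and 2033, 3634 and 2583 CPM with GK+mL (log2 -0.20, 95% interval -0.38 to -0.019). The abundant hepatocyte markers lay lower too, as 10 of 12 were below 0, with a median of -0.10, and their sum was 103040 and 93889 CPM with GK+hL and GK+mL in mouse 1, 144712 and 137545 CPM in mouse 2, and 106603 and 99332 CPM in mouse 3. Of 18 interferon-response genes 12 were below 0 (median -0.087), among them Ifit3 at 60.8, 16.7 and 60.4 CPM with GK+hL and 31.4, 12.2 and 43.7 CPM with GK+mL (log2 -0.64, SE 0.23), and the medians by mouse, -0.38, 0.044 and -0.10, disagreed in sign. With the effective length offset the medians were -0.24 for acute phase proteins, -0.013 for hepatocyte markers, with 6 of 12 above 0 and Alb at 0.64, and -0.37 for interferon-response genes. The part of the hepatocyte marker level in these lists was not tested. In bulk RNA, fewer cells of a type and less RNA per cell cannot be told apart.

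Several lists of other hepatocyte functions had medians near 0. The median was -0.010 for 20 genes of cholesterol synthesis, -0.013 for 10 of bile acid synthesis and transport, 0.039 for 23 of fatty acid oxidation and ketogenesis, -0.036 for 19 cytochromes P450 and -0.016 for 14 p53 targets. The list of cholesterol excretion and LXR genes had 7 of 10 above 0 and a median of 0.23. It includes the LXR receptor genes Nr1h3 (log2 0.23) and Nr1h2 (0.31), and the members Mylip (-0.29) and Lpcat3 (-0.074) lay below 0. Genes of sterol sensing and uptake had 5 of 7 above 0 and a median of 0.17. DNA replication genes, 44 in all, had a median of 0.10, with 0.047, -0.010 and 0.19 by mouse. Mcm2, a subunit of the replicative helicase, was at 43.5 ± 8.69 CPM with GK+hL, 54.7 ± 15.002 CPM with GK+mL and 13.8 ± 1.25 CPM with GK alone, and the list's median was -0.071 with the effective length offset. Hepatocyte transcription factors had 10 of 13 above 0, with a median of 0.18, but Foxa2 was lower in 3 of 3 mice (log2 -0.34, SE 0.13).

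**Figure D3:**
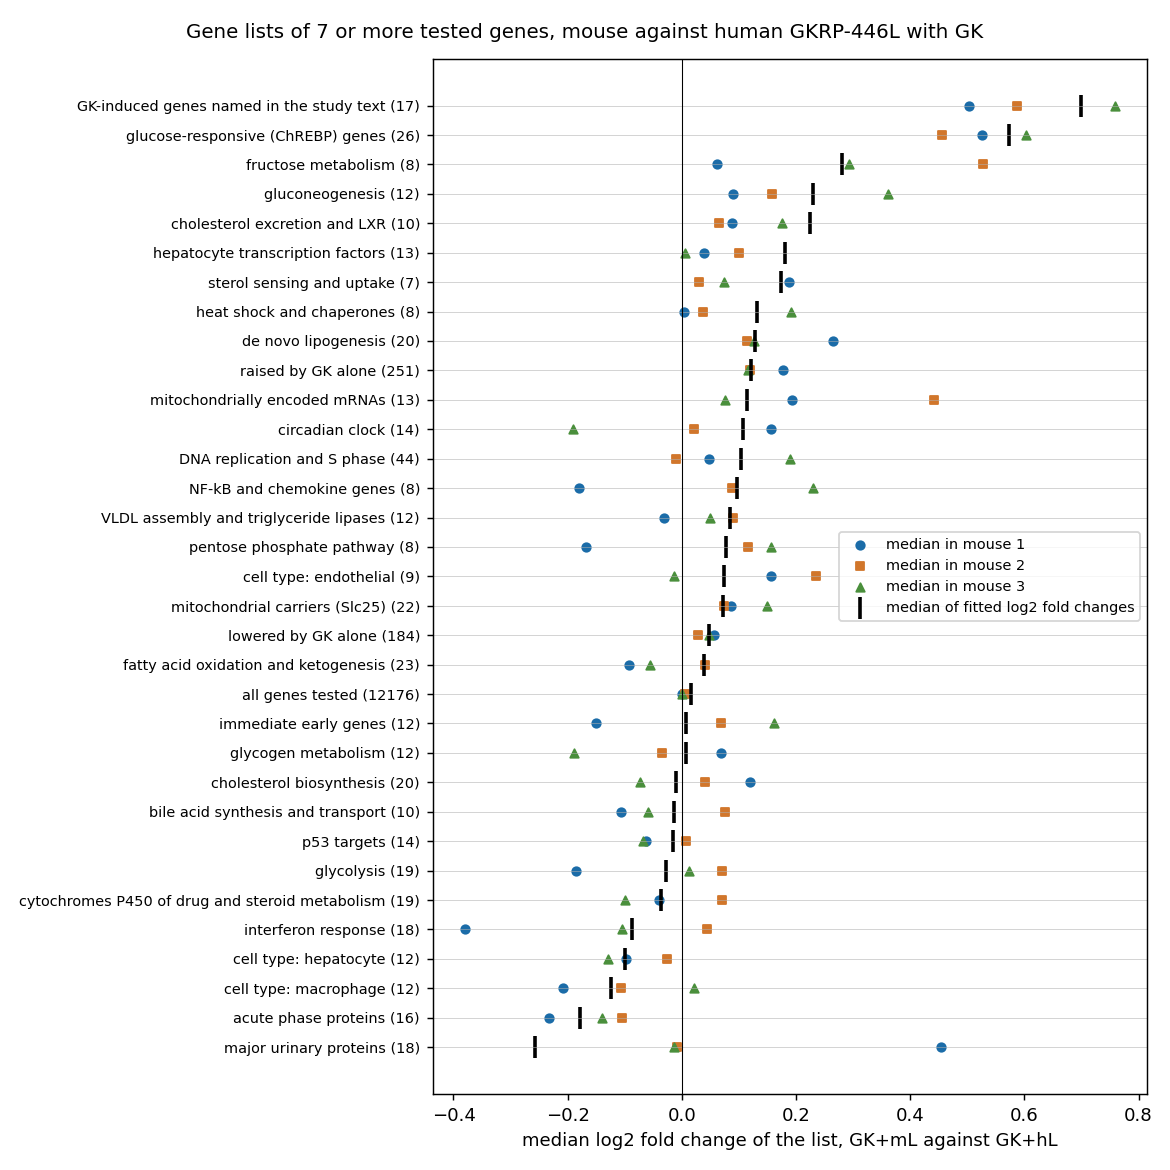
Median log2 fold change of GK+mL against GK+hL for gene lists with 7 or more tested genes (number in brackets), as the median of the fitted values (black bars) and the median in each of 3 mice (symbols). The 17 genes of the study text and the 26 glucose-responsive genes have the highest medians of the fitted values and lie right of 0 in all 3 mice, and acute phase proteins lie left of 0 in all 3.

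The same vectors were compared at endogenous GK, in libraries that the first comparison does not use. With mL against hL, 0 genes (0%) were called in either direction by edgeR, 472 (3.88%) were higher and 417 (3.42%) lower at an unadjusted p under 0.05, and DESeq2 with the mouse as a term called 16 and 10. The genes raised by GK alone had a median of -0.11 there, with 63 of 251 above 0, but the mL and hL libraries are among the 5 conditions that defined this set. The 17 genes of the study text had a median of 0.00020, with 9 above 0, and the 26 glucose-responsive genes 0.041, with 15 above 0. Tkfc had a log2 difference of -0.094 (95% interval -0.39 to 0.20), Pklr -0.25 (-0.55 to 0.062) and Fasn -0.31 (-0.78 to 0.17), against 0.73, 0.70 and 0.74 with GK.

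The difference between these differences was tested as an interaction. Mouse Gckr RNA was higher with mL than with GK+mL in each mouse, as given above, and its part was not tested. In edgeR 0 genes (0%) were called in either direction, with 510 (4.19%) higher and 589 (4.84%) lower at an unadjusted p under 0.05, and DESeq2 with the mouse as a term called 19 higher and 45 lower. Pklr had an interaction of 0.94 (SE 0.21, edgeR adjusted p = 0.110), Tkfc 0.83 (SE 0.20, adjusted p = 0.175) and Fasn 1.04 (SE 0.32, adjusted p = 0.299). All 17 genes of the study text had an interaction above 0 (median 0.65), as did 25 of 26 glucose-responsive genes (median 0.52) and 6541 of all genes (median 0.029). The study chose the 17 on libraries that also enter this interaction, and the 26 share most of their leading genes. Neither count is independent evidence. The smallest adjusted p, 0.0556, was shared by 7 genes chosen after their values were seen. They were Ncl and Nop58, nucleolar proteins of ribosome production, the splicing factor gene Rbm25, Terf1, which binds telomere repeats, Mettl6, Smarce1 and Shfl, all below 0 except Shfl. Acute phase genes had 1 of 16 above 0 in the interaction (median -0.18), since at endogenous GK 13 of 16 were above 0 (median 0.10).

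With the proline form of the protein, the genes raised by GK were not centred above 0. Mouse Gckr RNA was higher with GK+mP than with GK+mL in each mouse, as given above, and human vector RNA could not be counted. The level of the mouse vector RNA therefore differed along with the residue, and its part was not tested. In GK+mP against GK+hP, 0 genes (0%) were called in either direction by edgeR, 761 (6.25%) were higher and 705 (5.79%) lower at an unadjusted p under 0.05, and DESeq2 with the mouse as a term called 13 and 12. The 251 genes raised by GK had a median of -0.050 with 97 above 0, the 17 of the study text 0.033 with 9 above 0 and the 26 glucose-responsive genes 0.0096 with 13 above 0. Tkfc was at 168, 188 and 164 CPM with GK+hP and 188, 193 and 169 CPM with GK+mP (log2 0.080, 95% interval -0.22 to 0.38). Txnip was at 13.9, 42.2 and 46.2 and 13.02, 37.4 and 37.7 CPM (log2 -0.20, 95% interval -0.81 to 0.42), with overlapping groups.

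The test of 446L against 446P in this species difference called 0 genes (0%) in either direction with edgeR, with 619 (5.08%) higher and 613 (5.03%) lower at an unadjusted p under 0.05, and DESeq2 with the mouse as a term called 9 and 7. Txnip had a difference of 1.46 (SE 0.41, adjusted p = 0.476), Pklr 0.75 (SE 0.21), Elovl6 0.69 (SE 0.17) and Fasn 0.92 (SE 0.32), all with the same adjusted p. Of the 17 genes 16 were above 0 (median 0.72), and of the 251 raised by GK 190 (median 0.20), against 6073 of all genes. Libraries of this test also served to choose the 17, so their count is not independent evidence.

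**Figure D4:**
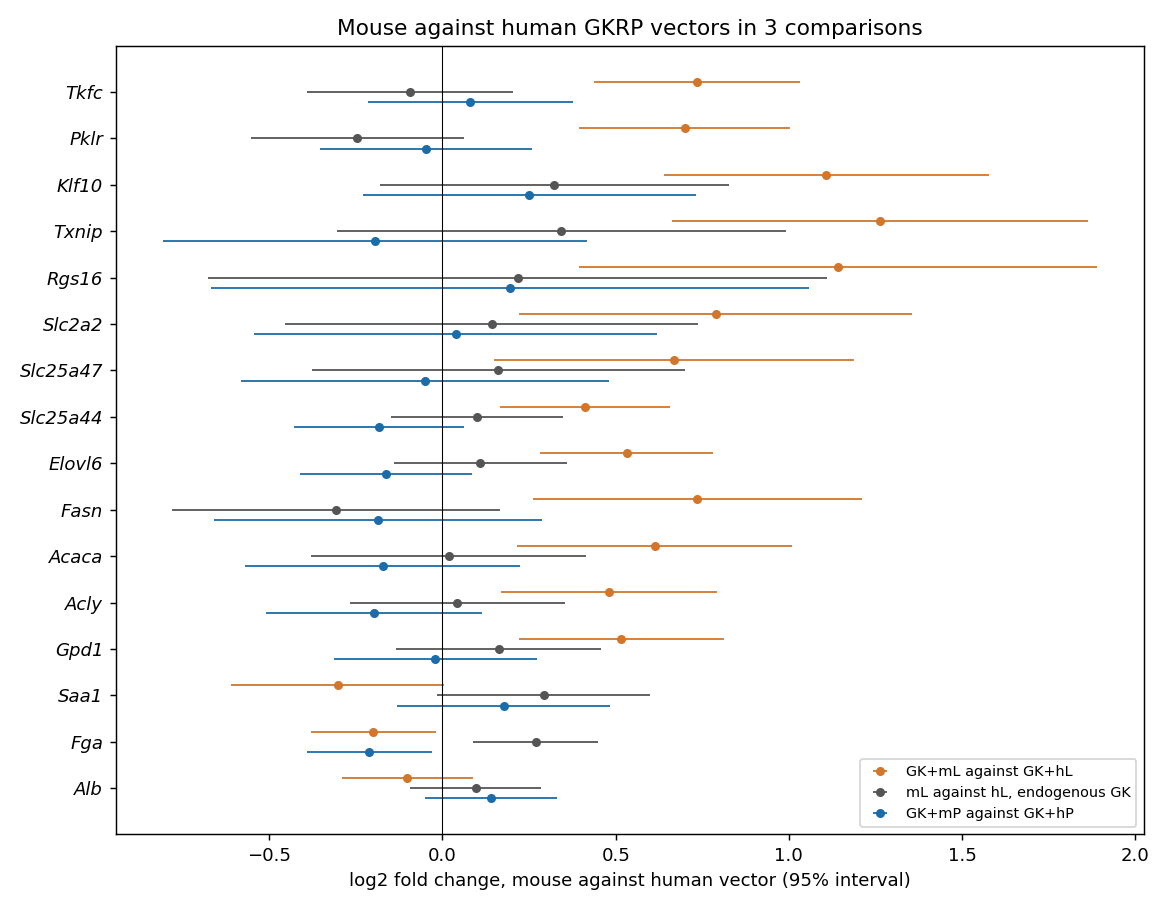
Log2 fold change of the mouse against the human vector for 16 genes, with 95% intervals from the edgeR fit (n = 3 mice), for 446L with GK (orange), 446L at endogenous GK (grey) and 446P with GK (blue). For Tkfc, Pklr and Klf10 the orange interval lies wholly above 0, whereas the grey and blue intervals of these genes include 0.

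A trend with transcript length ran through all genes and bears on small differences. The log2 difference of GK+mL against GK+hL had a Spearman correlation of 0.222 with annotated transcript length across 12176 genes, which are not independent replicates, and that of GK+mP against GK+hP one of -0.489. From the shortest to the longest of 3 equal classes of length the median of all genes was -0.045, 0.0061 and 0.069, and that of the GK-raised genes 0.043, 0.12 and 0.13. The study-text genes had a median length of 2787 bases, near the 2689.5 bases of all genes, whereas the GK-raised set had 3577 and the acute phase list 1422 bases. After subtraction of the trend, an alternative chosen after seeing the data, the median was 0.70 for the study-text genes, 0.50 for the glucose-responsive genes, 0.076 for the GK-raised genes, 0.094 for lipogenesis, -0.11 for acute phase proteins and -0.068 for hepatocyte markers. For the test of 446L against 446P the correlation was 0.485, so the medians of the larger lists in that comparison carry the trend. What causes it was not tested.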

How the data were processed

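RNA of 36 hepatocyte cultures was sequenced, and the authors deposited 1 Salmon 1.4.0 table per culture, run on untrimmed reads against the Gencode M26 mouse transcripts (GRCm39) after FastQC. The expected counts that the authors deposited are estimated reads per transcript, not normalized, and replicates were not pooled. Per the file headers, TPM and an effective length per transcript stand beside them. TPM was not used here, and effective lengths served as an offset in 1 alternative, where they varied strongly between libraries (Alb at 347 to 1454 bases in the 6 libraries, against 2034 annotated).

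Transcripts were matched to genes with a later Gencode release of the same build (137570 of 139225), and the counts of a gene's transcripts were added and rounded. Libraries of the 36 cultures held 3924674 to 10046158 reads. The 2 cultures per mouse of untreated cells and GK alone were summed, giving 30 samples of 10 conditions. edgeR 4.0.16 (R 4.3.3) was run with filterByExpr, TMM, condition and mouse as terms, the quasi-likelihood F test and Benjamini-Hochberg adjustment over 12177 genes, Gckr being left out afterwards. A standard error is the log2 fold change divided by the square root of F. Log2 ratios by mouse used a prior count of 2. DESeq2 1.42.0, the tool named by the study, was an alternative, and the others are given below. The fit was tested on counts simulated from its own fitted means and spread, which cannot show how well that model suits the real counts. The precision of a level rests on 3 mice. With the mouse as a term, p-values measure the spread that remains after the level of each mouse is taken out, estimated over the 10 conditions together.

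Pairing comes from the labels, which name the animal. Over 7544 coding genes with at least 10 CPM, deviations from the group mean of same-mouse GK+hL and GK+mL samples correlated at 0.417, 0.453 and -0.048 in mice 1, 2 and 3, and those of different mice at 0.117 or less. Over all 12176 genes the same-mouse values were 0.169, -0.0098 and -0.231. Named genes were those called, or else the 10 of smallest p in each direction with the same sign in 3 of 3 mice and a symbol of their own, the genes of the study text with Txnip, and up to 4 of smallest p per list. Some genes that this rule names, and 1 gene list, are not reported here. Members and gene lists were chosen with earlier results of these data known.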

Additional observations from a re-analysis of the deposited data

Results flagged for a closer look

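One of the 6 cultures of GK alone, the fifth by label and from mouse 3, held 1425 CPM (unscaled) of Gckr, although no GKRP vector was listed for it. It was set apart because its gap to the nearest other culture exceeded the 95% limit of Dixon's test. Of the 2 sets of cultures tested (Gckr in untreated cells and in GK alone) this was the only one, and chance alone marks about 1 in 20 such sets. The culture belongs to neither group of the main comparison, but it enters the definition of the genes raised by GK. Without it, an alternative added after seeing the data, 271 genes were raised and 184 lowered, their median log2 difference between GK+mL and GK+hL was 0.119, and still 0 genes were called in that comparison. The source of these reads was not tested. Groups of 3 mice were too small for this test.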

How the results depend on the processing

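For GK+mL against GK+hL, the count of 0 called genes in both directions held without the replicate block, with RLE size factors, with only the conditions compared, with both other filters, with the effective length offset, with Gckr removed, without the fold threshold, without the Gckr-positive culture and with protein-coding genes only. DESeq2 with the mouse as a term called 22 higher and 14 lower, DESeq2 with no replicate block 11 and 8, the 5 conditions with GK 2 higher, and 36 cultures as samples 1 higher. Leaving out each mouse gave 0 to 2 higher; the 2, Gon4l and Krt8-ps, came without mouse 2. For mL against hL at endogenous GK, DESeq2 called 16 and 10 with the mouse and 11 and 7 with no replicate block, only the conditions compared gave 2 higher, and leave-one-out gave 0 to 1 in either direction. For the interaction with GK, DESeq2 called 19 higher and 45 lower with the mouse and 12 and 25 without the block, RLE factors gave 3 lower (Terf1, Nop58 and Ncl), 36 cultures 1 lower (Smarce1), Gckr removed 6 lower, and leave-one-out 0 to 1 higher. For 446P with GK, DESeq2 called 13 and 12, or 6 and 6 without the block, and for 446L against 446P 9 and 7, or 9 and 6.

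Genes raised and lowered by GK alone, 251 and 184, became 72 and 72 with no replicate block, 109 and 117 in DESeq2 without the block, 31 and 9 with the effective length offset, and 390 and 383 with no fold threshold. Leaving out a mouse gave 79 to 212 raised and 72 to 126 lowered, with the lowest counts without mouse 3 and 155 and 116 without mouse 2; fewer samples enter those fits. Of the 72 genes raised without the block, 71 were among the 251. The median difference of the raised genes, 0.121, stayed above 0 in every alternative and was 0.309 with no replicate block, 0.210 in DESeq2 without it, 0.441 with the length offset, 0.0718 with no fold threshold, 0.431 for genes raised against untreated cells only and 0.076 with the length trend subtracted; leave-one-out gave 0.109 to 0.183. In all of these except the subtraction of the length trend, the set itself changed size.

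Across 53 named genes and 848 comparisons with an alternative, 823 kept direction and side of the threshold, 13 passed it in addition (10 in DESeq2 with the mouse as a term) and 12 changed sign. With the effective length offset Angptl8 went to -0.146, Eapp to 0.060, Ggnbp2 to 0.929, Slc16a1 to -0.0035, Slc4a1ap to 0.317, Terf1 to 0.057, Bhlhe40 to 0.579, Khk to -0.33, Pdk4 to 0.50 and Alb to 0.639. Leaving out a mouse gave Me1 -0.027 to 0.075 and Pfkfb3 -0.030 to 0.18, the negative values without mouse 3 and without mouse 1. None of these passed the test in either setting, and the cause was not tested. At these depths and with 3 mice, genes of a few CPM such as G6pc1, Hcn3 and Lhx6 have intervals wider than 1 log2 unit.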

Other observations

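Some large fold changes in single genes rested on reads that switch between almost none and many across cultures of the same condition. Rab12, a small GTPase gene that DESeq2 called higher in GK+mL, had 0 to 2 reads in the 3 GK+hL cultures and 124 to 171 in the 3 GK+mL cultures, and at endogenous GK it had 1 to 2 reads with hL and 124 to 202 with mL. Yet the 6 cultures of GK alone ranged from 1 to 275 reads and the 6 untreated cultures from 2 to 267. Krt8-ps, a pseudogene that shares sequence with Krt8, had between 3 and 1475 reads in the GK+mL cultures and at most 13 with GK+hL. Mup10, one of the near-identical major urinary protein genes, ranged from 29 to 19290 reads within GK+mL and from 35 to 14921 within GK alone. Reads of such genes can be split between copies in more than 1 way, so their values are uncertain. Of 11180 coding genes tested, 54 had at most 5 reads in one culture and at least 100 in another within the untreated or the GK cultures. Rab12, Krt8-ps and Mup10 were chosen after their values were seen.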
